A study of Mus musculus with 6 samples.

Results

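Interferon response genes were examined as a list of 50 genes in mouse embryonic fibroblasts, 3 cultures from embryos in which a gene-trap cassette had inactivated the Ing1 locus and 3 cultures from their wild-type littermates. The cultures C4, C3 and B1 are Ing1-deficient, the cultures H2, H3 and I2 are wild type, and each was grown from its own embryo, kept at early passage and read on its own 1-colour CodeLink whole-genome array. A gene entered through a probe annotated with its symbol alone, the brightest such probe where there were several. Of the 50 genes, 46 had such a probe, out of 18069 genes on the array. The probes for Tgtp1, Ifit3 and B2m also carried another gene's symbol, and Ifi44 is named only. A probe was tested where every array of 1 genotype or of both gave a good spot, which left 31 of the 50 genes. A good flag is the scanner software's mark for a regular spot above its local background. Another 5, Mx1, Oas1a, Oas2, Oasl2 and H2-K1, had no good spot on any array, and the remaining 10 had good spots on too few arrays.

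Interferons are cytokines that cells release on infection. Type I interferons (alpha and beta) signal through the receptor Ifnar1 and Ifnar2 to a complex that holds Stat2 and Irf9 and binds the interferon-stimulated response element (ISRE) of antiviral genes such as the Ifit, Oas and Mx families. Type II interferon (gamma) signals through Ifngr1 and its partner to the gamma-activated site (GAS) of its target genes, and it is the classical inducer of the immunity-related GTPases, proteins of mouse cells that attack the vacuoles of intracellular parasites and bacteria. Fibroblasts respond to both, and the comparison asked whether these genes differ in cells that lack Ing1, a chromatin reader that works with histone deacetylase complexes.

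Irgm1 and Ifi47 were the members that passed the test. Igtp and Ifit1 were tested members of the same GTPase list and of the type I list. For these 4 members the 250 bases before the annotated start are shown. They are RefSeq sequences of build GRCm38.p6, 5′ to 3′ along the gene: Irgm1 at chr11:48871421-48871670 (minus strand), Ifi47 at chr11:49076337-49076586 (plus strand), Igtp at chr11:58199306-58199555 (plus strand) and Ifit1 at chr19:34640639-34640888 (plus strand). Capitals mark matches to the ISRE core GAAANNGAAA or the GAS core TTCNNNGAA, searched on both strands.
Irgm1: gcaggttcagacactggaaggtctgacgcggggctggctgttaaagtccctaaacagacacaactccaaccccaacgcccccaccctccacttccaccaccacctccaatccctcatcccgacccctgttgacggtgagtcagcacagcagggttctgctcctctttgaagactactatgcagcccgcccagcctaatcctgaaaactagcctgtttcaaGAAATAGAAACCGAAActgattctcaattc
Ifi47: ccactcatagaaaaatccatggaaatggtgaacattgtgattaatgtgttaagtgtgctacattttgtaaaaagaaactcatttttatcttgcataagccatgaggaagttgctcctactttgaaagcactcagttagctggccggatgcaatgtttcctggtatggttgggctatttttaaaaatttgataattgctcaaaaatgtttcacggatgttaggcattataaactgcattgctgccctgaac
Igtp: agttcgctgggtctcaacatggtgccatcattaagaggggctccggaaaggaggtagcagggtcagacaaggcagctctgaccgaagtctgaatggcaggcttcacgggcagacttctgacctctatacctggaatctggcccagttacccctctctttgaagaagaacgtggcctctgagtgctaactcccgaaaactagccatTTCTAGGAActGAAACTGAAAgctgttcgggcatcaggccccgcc
Ifit1: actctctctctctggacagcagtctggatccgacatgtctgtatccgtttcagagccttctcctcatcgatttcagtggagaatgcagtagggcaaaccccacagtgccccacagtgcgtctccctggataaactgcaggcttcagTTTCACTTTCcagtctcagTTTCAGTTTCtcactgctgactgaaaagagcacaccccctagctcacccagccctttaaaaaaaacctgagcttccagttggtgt
Irgm1 held 2 overlapping ISRE cores, whose first bases lay at positions -30 and -24 from the start. Igtp held a GAS core at -45 and an ISRE core at -34, and Ifit1 held 2 ISRE cores on the opposite strand at -104 and -85. Neither set of letters occurred in the Ifi47 window. A match is a description of the letters, not evidence of binding, and no match says only that these letters are not in this window.

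The windows searched ran from 250 bases before to 50 after each annotated start, and 42 of the 50 members had an entry, with 51 entries in all. Gbp4, Ifi27, Mx1, Dhx58, Iigp1, Mx2, Usp18 and Oas2 are named only. The ISRE core occurred in 21 of the 51 entries (41.2%), against 3.44% of all 32851 promoters in the table. The GAS core occurred in 14 entries (27.5%), against 8.3% of all promoters. A near form of the ISRE core with 3 free bases in place of 2 occurred in 4 entries (7.84%), against 2.75%. Of the immunity GTPases, 6 of 7 genes with an entry held the ISRE core and 3 of 7 the GAS core, and of the type I targets 4 of 7 held the ISRE core and 2 of 7 the GAS core. Matches of the 3 motifs can overlap one another.

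**Figure D1:**
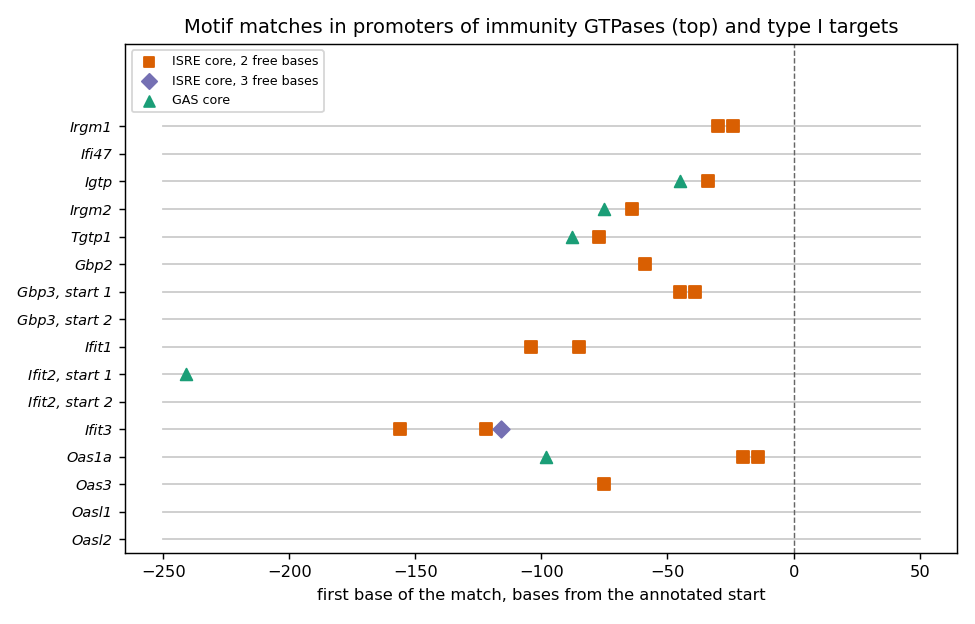
Positions of motif matches in RefSeq promoters of immunity GTPases (top 8 rows) and type I targets (bottom 8 rows), as the distance in bases of the first base of the match from the annotated start. Igtp, Irgm2 and Tgtp1 hold a GAS core (triangles) 11 bases before an ISRE core (squares), Irgm1 holds 2 ISRE cores at -30 and -24, and Ifi47 holds no match.

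In 3 GTPase genes on chromosome 11 the GAS core was followed by 2 bases and then the ISRE core. These stretches of 21 bases lie at chr11:58199511-58199531 (plus strand) for Igtp, chr11:58214902-58214922 (plus strand) for Irgm2 and chr11:48992314-48992334 (minus strand) for Tgtp1. They are shown because the same arrangement recurs, with the motif letters in capitals. The Igtp and Irgm2 windows are also near-identical on both sides of the stretch, so they are not independent occurrences.
Igtp: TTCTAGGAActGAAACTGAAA
Irgm2: TTCCAGGAActGAAACTGAAA
Tgtp1: TTCCAGGAAtcGAAACTGAAA
The joined letters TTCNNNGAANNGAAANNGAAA were written down after the separate matches had been seen. They occurred in 5 of 32851 promoters (0.0152%), those of Igtp, Irgm2, Tgtp1, Tgtp2 and Gm12185. These 5 are not independent, since Tgtp1 and Tgtp2 are also near-identical genes. Irgm1 and Ifi47, the members that passed the test, did not hold the joined letters. Of the genes that held them, Igtp did not pass it and Irgm2 was too dim to test. The probe shared by Tgtp1 and Tgtp2 was at a log2 difference of 0.96 ± 0.29 (adjusted limma p 0.081), and Gm12185 was at -0.08 ± 0.20.

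The arrays were of similar quality. Good spots made up 55.5% to 59.0% of the transcript probes on the deficient arrays and 56.0% to 62.1% on the wild-type arrays. The probe for Ing1 read 1.38, 0.93 and 1.39 on the deficient arrays C4, C3 and B1, against 11.7, 11.4 and 11.1 on wild-type H2, H3 and I2, in normalized units in which the median probe of an array is 1. The labels do not say where this probe lies relative to the cassette. Across all 19575 tested probes, 967 (4.94%) were higher and 319 (1.63%) lower in deficient cells at an adjusted limma p under 0.05, and the median log2 difference was 0.02. Without array H3, 2725 probes passed, against 1286 with all arrays, and without any other single array 5 to 390 passed (390 on leaving out C3, 52 for C4, 24 for H2, 17 for I2 and 5 for B1). The leading letter of a culture's name is not explained and no letter holds both genotypes, so genotype and whatever the letter marks cannot be told apart. All 9 fibroblast markers were tested and 1 of them, Thy1, passed, higher in deficient cells.

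Of the 31 tested interferon response genes, 2 rose in Ing1-deficient fibroblasts, Irgm1 and Ifi47, and 0 fell. Both encode p47 immunity-related GTPases, and both were more than 2-fold higher as deposited. With normexp background correction the log2 differences were smaller, at 0.81 for Irgm1 (adjusted p 0.0308) and 0.51 for Ifi47, whose call was then lost (adjusted p 0.0746). Those 2 are 6.45% of the tested members, beside the 4.94% of all probes called higher, so the number of calls in the list was near the background, and 0 stands beside the 1.63% called lower. An unadjusted limma p under 0.05 was reached by 3 members with higher and 6 with lower values in deficient cells, beside 17.0% and 9.21% of all probes. The methods' t-test, unadjusted, gave 2 higher and 3 lower members (Eif2ak2, H2-D1 and Irf1), beside 13.7% and 6.40% of all probes. Without array H3, 3 members passed as higher (Irgm1, Ifi47 and Ifnar2) and 1 as lower (Bst2). Ifnar2 had no good wild-type spot left without H3. Without C3 only Irgm1 passed, and without C4, B1, H2 or I2 the limma count was 0. Over all probes 13.9% passed without H3, 1.99% without C3, and 0.0255% to 0.266% without 1 of the other 4 arrays, so these member counts move with the background. The log2 difference, deficient minus wild type, was positive for 13 members and negative for 18, with a median of -0.11.

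Irgm1, a regulatory GTPase that keeps other family members inactive on the cell's own membranes, read 10.7, 8.2 and 8.04 on the deficient arrays C4, C3 and B1, against 3.15, 4.36 and 3.97 on wild-type H2, H3 and I2. Every deficient culture lay above every wild-type culture. The means were 8.98 ± 1.48 and 3.83 ± 0.615 (SD, n = 3 each), a log2 difference of 1.23 ± 0.19 (standard error) and a 2.35-fold higher level in deficient cells, with an adjusted limma p of 0.0195. Leaving out 1 array at a time kept the difference between 1.10 and 1.33, and the adjusted p passed without C3 or without H3 and missed the threshold without C4, B1, H2 or I2, reaching 0.0982 at most.

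Ifi47, an effector GTPase of the same family, read 5.32, 3.39 and 3.38 on C4, C3 and B1, against 1.53, 2.63 and 1.76 on H2, H3 and I2. The genotypes again did not overlap, and the arrays stood in the same order as for Irgm1, with C4 highest among the deficient and H3 highest among the wild-type cultures. The means were 4.03 ± 1.12 and 1.97 ± 0.582 (SD, n = 3 each), a log2 difference of 1.03 ± 0.25 and a 2.05-fold higher level, with an adjusted limma p of 0.046. With 1 array left out, Ifi47 passed only when that array was H3 (adjusted p 0.0139), and missed the threshold without C4, C3, B1, H2 or I2, at 0.169 at most. The difference stayed between 0.82 and 1.26. Its call was also lost with quantile normalization (adjusted p 0.0687), cyclic loess (0.0671), a floor of 0.01 (0.0752) or of 1.14 (0.157) and with no filter on flags (0.285), and that of Irgm1 with the floor of 1.14 (0.0669) and with no filter (0.15).

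Macrophage markers shifted upward in deficient cells. For 5 of the 10 tested, every deficient culture lay above every wild-type one, beside 20.1% of all probes measured on all arrays. Of 14 with a probe, 10 were tested, all 10 differences were positive, and the median was 1.15. Of these, 3 passed (C1qa, C1qb and Mrc1), beside 4.94% of all probes called higher. Mrc1 and Laptm5 entered the test only through the deficient arrays, since I2 held their 1 good wild-type spot. With dim wild-type values set to 0.57, their differences depend on that floor. Their summed level was 57.2, 174 and 91.9 on C4, C3 and B1, against 61.9, 39.6 and 26.8 on H2, H3 and I2. This sum was highest on C3 among the deficient cultures and on H2 among the wild-type ones, and the deficient C4 lay below the wild-type H2. Lyz2 gave its largest part, at 25.2, 80.8 and 39.6 on C4, C3 and B1. Of the untested markers, Ptprc and Fcgr1 had no good spot on any array. Adgre1 had good spots on the deficient C3 and B1 only, and Itgam on the deficient C3 only. The part of such cells in the values of Irgm1 and Ifi47 was not tested, and in RNA of whole cultures a change in the number of cells of a type and a change in RNA per cell cannot be told apart. Of 8 lymphoid markers with a probe, 6 had no good spot, Ifng among them.

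Igtp, another regulatory GTPase, did not pass. Its values were 1.47, 1.05 and 0.610 on the deficient arrays, against 0.973, 1.31 and 0.924 on the wild-type arrays, and the groups overlapped. The log2 difference was -0.11 ± 0.30 with an adjusted p of 0.86.

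The other GTPases with a probe of their own had too few good spots to test. Irgm2, also regulatory, had a good spot on C4 alone, with values of 0.636, 0.527 and 0.369 against 0.244, 0.273 and 0.375. Iigp1, which coats parasite vacuoles, also had its only good spot on C4, with 2.19, 0.497 and 0.528 against 0.122, 1.31 and 0.242. Its 1.31 on H3 came from a spot flagged as irregular. The guanylate-binding proteins Gbp2, Gbp3 and Gbp4 are larger GTPases that interferon gamma also induces. Gbp2 read 1.03, 0.956 and 0.344 in deficient cells, against 0.392, 0.645 and 0.697 in wild-type cells. Gbp3 read 1.05, 0.260 and 0.514, against 0.141, 0.679 and 0.573. Each of these groups overlapped. Gbp4 had 1 good spot, on H3, with 0.331, 0.345 and 0.327 against 0.537, 0.551 and 0.219, again overlapping.

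In the RefSeq order of chromosome 11, Irgm1 and Ifi47 bound a cluster with 7 other protein-coding genes between them. Of those 7 genes, 4 had a probe. Tgtp1 and Tgtp2, near-identical GTPase genes, share 1 probe, which read 2.01, 1.61 and 1.05 on the deficient arrays, against 0.155, 1.09 and 0.746 on the wild-type arrays. The lowest deficient value, on B1, lay just under the highest wild-type value, on H3. The log2 difference of 0.96 ± 0.29 missed the threshold, with an adjusted p of 0.081, and the probe cannot say which of these genes it reads. H2 was not above background, so this probe entered the test only through the deficient arrays. Gm12185 read 0.722, 0.40 and 0.887, against 0.662, 0.753 and 0.862, a log2 difference of -0.08 ± 0.20 with an adjusted p of 0.844. For 9930111J21Rik2, a probe shared with 1700028K03Rik differed by -0.04 ± 0.15 (adjusted p 0.901), and its own probe had no good spot. So within the cluster the probes at both ends passed, and the 3 tested probes between them did not.

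**Figure D2:**
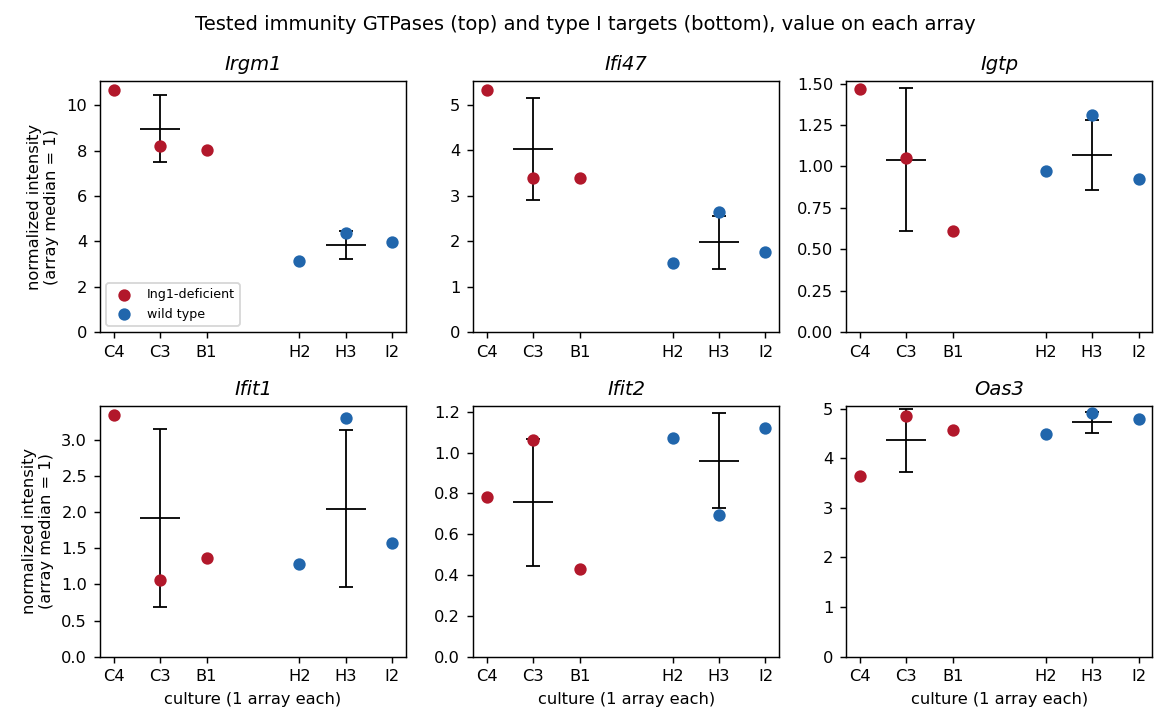
Normalized intensity on each array (y axis, linear from 0, array median 1) of the 3 tested immunity GTPases (top) and the 3 tested type I targets (bottom), with the deficient C4, C3 and B1 at the left of each panel and the wild-type H2, H3 and I2 at its right. Bars give the mean and SD of 3 arrays. Irgm1 and Ifi47 separate the genotypes, while Ifit1 is high on C4 (3.34) and H3 (3.30), 1 array of each genotype.

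None of the classical type I targets passed. Only Ifit1, Ifit2 and Oas3 could be tested. Ifit1, which binds viral RNA with an incomplete cap, read 3.34, 1.06 and 1.37 on the deficient arrays, against 1.28, 3.30 and 1.57 on the wild-type arrays. C4 and H3, 1 array of each genotype, were well above the other 4, and the log2 difference was -0.15 ± 0.45 (adjusted p 0.87). Ifit2, its relative and partner, read 0.782, 1.06 and 0.431, against 1.07, 0.694 and 1.12. The groups overlapped, with a log2 difference of -0.27 ± 0.26 (adjusted p 0.555). Ifit2 was not above background on B1 and entered the test only through the wild-type arrays. Oas3, which makes the oligoadenylates that activate RNase L, read 3.65, 4.85 and 4.57, against 4.48, 4.90 and 4.79, a log2 difference of -0.13 ± 0.16 (adjusted p 0.675). A second probe for Oas3 gave -0.12 ± 0.17.

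The probe for Ifit3 is shared with Ifit3b, a near-identical gene. It read 2.11, 1.03 and 0.982 in deficient cells, against 3.42, 3.70 and 2.01 in wild-type cells. The deficient C4 and the wild-type I2 overlapped narrowly. The log2 difference of -1.19 ± 0.33 missed the threshold, with an adjusted p of 0.0649. Mx2, a dynamin-like antiviral GTPase, was too dim to test and read 1.91, 0.569 and 0.226, against 0.523, 1.66 and 0.747. Oasl1, an Oas-like protein that restrains Irf7 translation in mouse, was likewise untested, with 1.38, 0.208 and 0.527 against 0.388, 0.985 and 0.0913. Both had their highest readings on C4 and H3. Mx1, Oas1a and Oasl2 had no spot above background on any array. Oas2 had no good spot either, since its 1 bright reading, 3.23 on C3, came from a spot flagged as irregular. No level of these 4 genes was compared.

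The median log2 difference was 1.03 over the 3 tested GTPases and -0.15 over the 3 tested type I targets, a gap of 1.18, beside 0.02 over all tested probes. After centring each gene on its mean over the 6 arrays, the GTPase median minus the type I median was 1.01, 0.20 and 0.68 on the deficient arrays C4, C3 and B1, against -0.84, -0.18 and -0.64 on wild-type H2, H3 and I2. The sign separated the genotypes on all 6 arrays, but each median rests on 3 genes, and the direction of the GTPase median is that of Irgm1 and Ifi47. The choice of members was made with these values known, and the gap has no test.

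Among the other effectors, 12 of 15 genes were tested and 0 passed, with 5 positive and 7 negative differences and a median of -0.06. The largest differences were negative. Bst2, or tetherin, which holds budding virus on the cell surface, read 14.6, 7.13 and 10.3 on the deficient arrays, against 26.7, 16.4 and 18.7 on the wild-type arrays. The groups did not overlap, and the log2 difference of -0.98 ± 0.28 missed the threshold (adjusted p 0.0688). It passed when H3 was left out (adjusted p 0.0457).

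Eif2ak2, the kinase PKR that halts translation on double-stranded RNA, read 0.252, 0.779 and 1.08, against 1.34, 1.39 and 1.62. Its groups did not overlap either, at -0.88 ± 0.23 (adjusted p 0.056). The C4 spot was not above background, so this probe entered the test only through the wild-type arrays, where it was high. The difference depends on the floor, at -0.34 with a floor of 1.14 and -1.27 with a floor of 0.01. A second, dimmer probe for Eif2ak2 went the other way, at 0.29 ± 0.19 (adjusted p 0.375), so the gene's direction depends on the probe. Isg20, an exonuclease, read 1.17, 1.37 and 1.03, against 1.94, 1.61 and 1.42, at -0.48 ± 0.18 (adjusted p 0.137), again without overlap.

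Usp18, which removes Isg15 from proteins and damps the type I receptor, read 3.33, 0.503 and 1.02, against 1.52, 2.29 and 1.22, with C4 and H3 highest and a log2 difference of -0.38 ± 0.54. It was not above background on C3 and entered the test only through the wild-type arrays. Isg15, a ubiquitin-like modifier, read 0.986, 1.07 and 1.12, against 1.07, 0.792 and 0.698, at 0.33 ± 0.19 (adjusted p 0.293). None of the remaining effectors passed either. Trim25, a ubiquitin ligase, was at 0.36 ± 0.20 (adjusted p 0.275), and its deficient values of 16.1, 11.2 and 11.1 lay above the wild-type values of 10.5, 10.8 and 8.38. Ifitm1, Ifitm2 and Ifitm3, membrane proteins that block viral entry, lay between -0.08 and 0.17, Trim21 at 0.08, Ifi27 at -0.04 and Ifi35 at -0.21. Rsad2 and Adar had too few good spots to be tested.

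The RNA sensors did not pass. Ifih1, or MDA5, read 5.99, 4.36 and 3.76 in deficient cells, against 2.40, 6.0 and 3.49 in wild-type cells, a log2 difference of 0.32 ± 0.32 (adjusted p 0.564). Ddx58, or RIG-I, was at -0.11 ± 0.16, and Dhx58 was not tested.

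All 5 transcription factors of the list were tested, and 0 passed. Irf3, which the RNA sensors activate, had the highest difference, at 0.85 ± 0.28 (adjusted p 0.0955). It read 5.38, 3.78 and 3.45 on the deficient arrays, against 1.49, 2.88 and 2.77 on the wild-type arrays, without overlap and in the array order of Irgm1 and Ifi47. Irf9, the DNA-binding partner of Stat2, read 2.40, 1.71 and 1.29, against 1.30, 1.75 and 0.599, at 0.65 ± 0.38 (adjusted p 0.303).

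The other factors had negative differences. Irf7, which amplifies type I interferon production, read 6.68, 1.72 and 2.19, against 7.20, 5.80 and 3.85. Its deficient C4 was among the wild-type values, and the difference was -0.89 ± 0.46 (adjusted p 0.252). Irf1, a direct target of gamma interferon signalling, read 5.26, 4.03 and 4.41, against 6.46, 5.94 and 5.56, at -0.40 ± 0.16 (adjusted p 0.162), with every deficient culture below every wild-type one. Stat2 read 2.43, 2.87 and 1.95, against 2.74, 3.27 and 3.27, at -0.37 ± 0.18 (adjusted p 0.238).

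The 3 receptor chains had positive differences on their brightest probes, and 0 passed, and that of Ifnar1 turned negative (-0.07 to -0.03) with quantile, cyclic loess or normexp processing, with array weights or without H2, and was 0.60 over the mean of all its probes. Ifngr1, the ligand-binding chain for interferon gamma, read 5.37, 7.18 and 4.63 in deficient cells, against 4.20, 4.1 and 4.35 in wild-type cells, without overlap, at 0.42 ± 0.19 (adjusted p 0.194). Ifnar2 read 0.878, 0.847 and 1.04, against 0.263, 0.943 and 0.326, at 0.45 ± 0.22 (adjusted p 0.236), and passed when H3 was left out (adjusted p 0.0346). It entered the test only through the deficient arrays, where it was high, since H3 held its 1 good wild-type spot. Without H3 the remaining wild-type values were all set to the floor of 0.57, so that pass depends on the floor. For Ifnar1 the probes disagreed. The brighter one read 11, 10 and 10.4, against 8.83, 10.4 and 11.4, at 0.05 ± 0.16 (adjusted p 0.882). The dimmer one read 12.4, 7.71 and 7.81, against 3.29, 6.26 and 3.29, without overlap, at 1.15 ± 0.29 (adjusted p 0.0481). No direction is given for Ifnar1.

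Of the 3 tested antigen presentation genes 0 passed, and all 3 differences were negative, with a median of -0.66. H2-D1, a class I heavy chain, read 24.1, 21 and 15.5 on the deficient arrays, against 36.1, 27.6 and 30.9 on the wild-type arrays. The groups did not overlap, and the difference was -0.66 ± 0.20 (adjusted p 0.0816), with -0.60 ± 0.20 (adjusted p 0.0974) on a second probe. Class I genes are near-identical in places, so a probe may read more than 1 of them. Tap1, a subunit of the peptide transporter, read 1.17, 1.33 and 0.660, against 1.68, 1.36 and 1.94, also without overlap, at -0.70 ± 0.27 (adjusted p 0.137). Its B1 spot was not above background, so Tap1 entered the test only through the wild-type arrays, where it was high.

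Tapbp, which joins that transporter to class I molecules, was at -0.33 ± 0.23 (adjusted p 0.407). The probe shared by B2m, the class I light chain, and Phf20l1 read 136, 126 and 125, against 203, 130 and 177, at -0.37 ± 0.19 (adjusted p 0.242). H2-K1 had no spot above background.

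**Figure D3:**
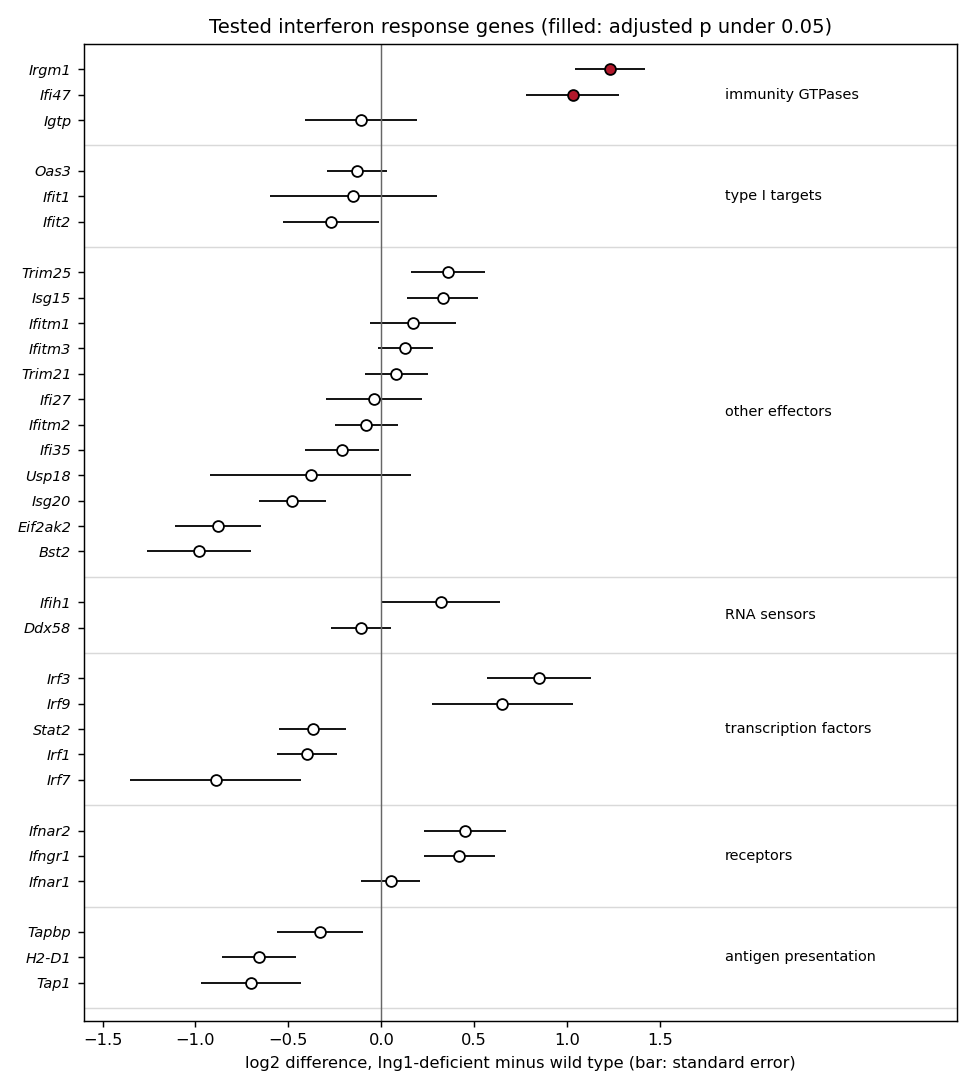
Log2 difference, Ing1-deficient minus wild type (x axis), of the 31 tested members, 1 row each, grouped by list, with bars of 1 standard error and filled points where the adjusted p was under 0.05. Irgm1 (1.23) and Ifi47 (1.03) are the filled points, and all 3 antigen presentation genes lie left of 0.

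Over the list, all 3 deficient cultures lay above all 3 wild-type cultures for 5 of 31 members (16.1%), beside 20.1% of 19520 tested probes measured on all arrays. They lay below for 6 of 31 (19.4%), beside 11.3% of probes. The 5 were Irgm1, Ifi47, Irf3, Trim25 and Ifngr1, and the 6 were Bst2, Eif2ak2, Isg20, Irf1, Tap1 and H2-D1. Among those 6, Eif2ak2 and Tap1 entered the test only through the wild-type arrays.

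A second pattern ran across the genotypes. For 8 of 31 tested members (25.8%) the arrays C4 and H3, 1 of each genotype, were the highest pair, beside 3.45% of all probes measured on all arrays. This count was made after the values had been seen. The 8 were Igtp, Ifit1, Ifi27, Usp18, Ifih1, Ddx58, Irf9 and Tapbp. The value on C4 was 1.22 to 4.37 times the mean of C3 and B1, and the value on H3 was 1.12 to 2.32 times the mean of H2 and I2. Usp18 and Ifit1 had the 2 highest ratios on C4, at 4.37 and 2.75, and Ifit1 and Ifih1 the 2 highest on H3, at 2.32 and 2.04. Among other interferon-induced genes outside the list, the pair was highest for 5 of 22. Of those 8 members 0 passed the limma test between genotypes.

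**Figure D4:**
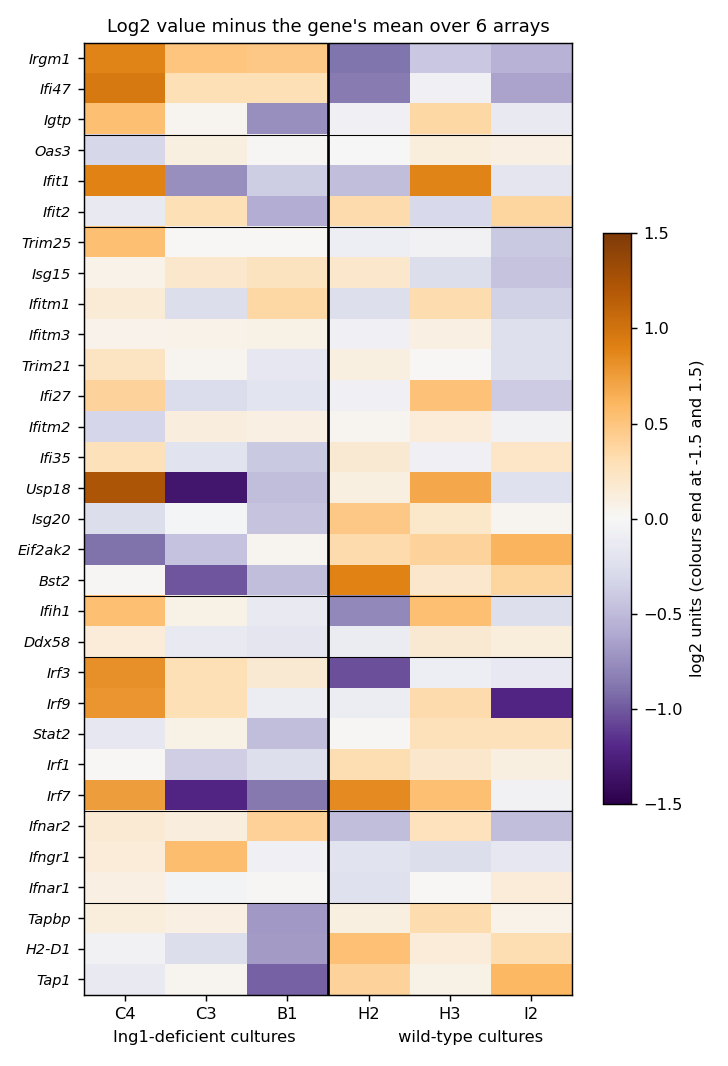
Log2 value of each tested member on each array after subtracting the gene's mean over the 6 arrays, deficient cultures left and wild-type cultures right of the heavy line, genes grouped by list. Irgm1 and Ifi47 are positive on all 3 deficient arrays (0.30 to 0.95) and negative on all 3 wild-type arrays (-0.88 to -0.06), while Ifit1 is 0.90 on C4 and 0.89 on H3 and negative on the other 4 arrays.

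The genes around the list were mostly without calls. Of 96 non-member pathway genes with a probe, in 6 lists, 60 were tested, 2 were called higher (3.33%) and 1 lower (1.67%), near the 4.94% and 1.63% of all probes. The ligand genes Ifnb1, Ifne and Ifng had no good spot on any array. Ifna1, Ifna4 and Ifna11 had good spots on too few arrays to be tested, and Ifnl3, the 1 tested ligand, was at -0.38 ± 0.18 (adjusted p 0.225). In the signalling list, where 0 of 8 passed, the lowest p values belonged to Irf4 at -0.41 ± 0.17 (adjusted p 0.169) and the kinase Tyk2 at -0.25 ± 0.18 (adjusted p 0.415). Irf4 had 1 good deficient spot, on C3, and entered the test only through the wild-type arrays.

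Of the 9 tested negative regulators 0 passed, and 8 had negative differences. Irf2bp2, a corepressor, was at -0.80 ± 0.20 (adjusted p 0.0504) and the phosphatase Ptpn2 at -0.48 ± 0.19 (adjusted p 0.159). Of the 8 tested genes of pathogen sensing 0 passed, led by the adaptor Myd88 at 0.63 ± 0.21 (adjusted p 0.104) and the kinase Ikbke at 0.70 ± 0.27 (adjusted p 0.144). Of the 12 tested genes of the immunoproteasome and peptide loading 0 passed, with Tap2, the partner of Tap1, at -0.72 ± 0.23 (adjusted p 0.0965) and the class II chain H2-Ab1 at 0.50 ± 0.18 (adjusted p 0.121).

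The 3 calls lay among 22 tested other interferon-induced genes. Acod1, which makes itaconate in activated macrophages, read 2.95, 7.28 and 7.68 on the deficient arrays, against 0.646, 1.51 and 0.227 on the wild-type arrays, a log2 difference of 2.74 ± 0.44 (adjusted p 0.0216). It entered the test only through the deficient arrays, since H3 held the 1 good wild-type spot, and with the I2 value set to 0.57 the difference depends on that floor. Slfn2, a Schlafen family member, read 7.58, 8.35 and 8.02, against 3.30, 4.18 and 1.90, at 1.43 ± 0.26 (adjusted p 0.0276). Both separated the genotypes fully. The macrophage marker sum was 57.2 to 174 on the deficient and 26.8 to 61.9 on the wild-type arrays, higher on C3 and B1 but overlapping on C4. Its part in Acod1 and Slfn2 was not tested.

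The chemokine Ccl5 went the other way. It was not above background on any deficient array, at 0.209, 0.189 and 0.464, against 1.79, 1.94 and 1.44 on the wild-type arrays. It was at least 3.78-fold lower in deficient cells, a bound taken against the higher of the gene's own spot and the dimmest good spot of each deficient array. The fit, which sets dim values to 0.57, gave -1.58 with an adjusted p of 0.0063. Ccl5 entered that test only through the wild-type arrays, where it was high.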

How the data were processed

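Biotin-labelled targets from the RNA of 6 fibroblast cultures were read on CodeLink mouse arrays, per the labels. Spots were quantified with CodeLink Expression Analysis 4.1.0.29054, per the file headers. The normalized intensity as deposited equals the spot's mean less its local background, over the array's median, as worked out from the values, and the deposited series table holds the same 217362 values. A log2 transformation and a Student test, here the methods' t-test, are stated in the labels' protocols. The genome build behind the probes is not given in the sources used here.

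Masked spots were treated as missing, values under 0.57 were set to 0.57 (the median over arrays of the 1st percentile of good spots), which understates differences of dim probes, and log2 values of 19575 probes were compared with limma 3.58.1 in R 4.3.3, two-sided, with Benjamini-Hochberg adjustment over all of them and a threshold of 0.05. The fit was tested on simulated data. Printed values are unfloored and SDs are of those. Of 34967 transcript probes, 21615 had 1 symbol, 681 several and 12671 none. The number of arrays, 3 per genotype, limits the precision.

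The members, lists, motifs and tests were chosen with earlier results of these data known. Named were all members that passed, the 6 highest and 6 lowest differences, all GTPases, type I targets, receptors and transcription factors, members with no good spot, other members by value or range, and, outside the list, genes that passed, the ligands and the 2 lowest p of lists without a call. Alternatives were other background, normalization, floor, filter, variance, weighting, block, test and probe choices, and each array left out.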

Additional observations from a re-analysis of the deposited data

How the results depend on the processing

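Against 2 members called higher and 0 lower, the counts were 4 and 4 with array weights and 9 and 11 with the leading letter as a random block, where 24.1% and 65.9% of all probes passed, beside 25.8% and 64.5% of tested members. The within-letter correlation estimated there was -0.886, and the 9 and 11 calls depend on it. Only C4 with C3 and H2 with H3 share a letter, so the estimate cannot say whether arrays of 1 letter were alike. With normexp background correction (offset 50), quantile normalization, cyclic loess normalization or a floor of 0.01, 1 member was called higher, Irgm1. With a floor of 1.14, no filter on flags or the methods' t-test after adjustment, 0 were called higher, and the unadjusted t-test called 2 higher and 3 lower. With no filter, 46 members and more probes were tested, and 20 probes passed in all. Leaving out 1 array gave 0 to 3 members called higher and 0 to 1 called lower.

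The median over tested members, -0.11, was 0.05 with a good flag required on all 6 arrays, which left 23 members, and -0.21 to 0.08 with 1 array left out. The GTPase median, 1.03, was 0.51 with normexp and 0.23 with no filter, and the gap to the type I targets, 1.18, was 0.60 and 0.23 there. That gap was positive under every alternative that gave one, at 1.05 to 1.36 with 1 array left out. The cause of these shifts was not tested.

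Irgm1 was higher in deficient cells under all 20 alternatives (log2 0.81 to 1.33) and passed in 13. Ifi47 was likewise higher in 20 (0.51 to 1.26) and passed in 8. Some alternatives could not differ from the main fit in these values. The deposited series table holds the same values, and averaging probes leaves genes with 1 probe, such as these, unchanged. The passes also include the unadjusted t-test and the letter block, where 20.1% and 65.9% of all probes passed. Of 612 member values under alternatives, 25 changed sign, none of them called under the setting that turned it, in 9 members: Ifit1, Ifit2, Igtp, Ifi27, Ifitm1, Ifitm2, Usp18, Trim21 and Ifnar1. No paired analysis was made, because the labels do not say which deficient culture belongs with which wild-type culture. Spots near background limit the GTPases and type I targets most, of which 3 of 9 and 3 of 10 were tested.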
